A study of Mus musculus with 6 samples.

Results

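The phagocyte NADPH oxidase subunits described here are 5 genes, Cyba, Cybb, Ncf1, Ncf4 and Rac2, which were chosen by name from the 55487 genes of the deposited expression table. All 5 were present, and all 5 were among the 15332 genes that passed the filter on low counts. The libraries were made from LSKs, the lineage-negative, Sca-1-positive and c-Kit-positive fraction of bone marrow that holds hematopoietic stem cells and early progenitors. Tespa1+/+ mice (labelled as wild-type littermates) gave 3 libraries and Tespa1-/- mice gave 3. The Tespa1-/- mice carried the B6.129S-Tespa1tm1Smoc knockout allele on a C57BL/6 background. By the methods of the study, mice were male and 8 to 10 weeks old, and both groups received 5.0 Gy of total body irradiation and were sampled at day 13, so that no unirradiated LSKs enter any comparison here. The sources do not say if each replicate came from 1 mouse or from pooled mice, and p-values then measure only the spread between these libraries.

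The phagocyte NADPH oxidase is the enzyme that passes electrons from NADPH across a membrane to oxygen and so makes superoxide, the starting point of the respiratory burst of neutrophils and macrophages. Cybb (gp91phox, also Nox2) is the catalytic subunit, and Cyba (p22phox) is its membrane partner, without which Cybb is unstable. In resting cells the cytosolic subunits, among them Ncf1 (p47phox, the organizer) and Ncf4 (p40phox, a phosphoinositide-binding adaptor), stay in the cytosol, and on stimulation they move to the membrane together with the GTPase Rac2. Loss of subunits of this complex in humans causes chronic granulomatous disease.

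On the mouse build GRCm38 the genes lie on 4 chromosomes. Cyba (ENSMUSG00000006519) occupies chr8:122424776-122432930 on the minus strand, Cybb (ENSMUSG00000015340) chrX:9435252-9487771 on the minus strand and Ncf1 (ENSMUSG00000015950) chr5:134220053-134229625 on the minus strand. Ncf4 (ENSMUSG00000071715) occupies chr15:78244801-78262580 on the plus strand. Rac2 (ENSMUSG00000033220) occupies chr15:78559167-78572783 on the minus strand, 296586 bases from Ncf4 with 10 protein-coding genes between them. In the GENCODE M21 annotation Ncf1 shares 408 exonic bases with Gtf2ird2, which is transcribed from the other strand, and 8.15% of the 50-base words of Ncf1 transcripts occur in transcripts of another gene. That share was 1.34% for Rac2 and 0 for Cyba, Cybb and Ncf4. Gtf2ird2 held 96 to 412 counts in a library, against 3089 to 6402 for Ncf1.

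The bases just upstream of the RefSeq start are shown for the members with an entry in the promoter table (RefSeq, GRCm38.p6, minus strand, 250 bases ending 1 base before the start). The windows are chr8:122432941-122433190 for Cyba, chrX:9469325-9469574 for Cybb and chr5:134229626-134229875 for Ncf1. Capitals mark GGGCGG on either strand, and GAAA, 2 further bases and GAAA on either strand.
Cyba: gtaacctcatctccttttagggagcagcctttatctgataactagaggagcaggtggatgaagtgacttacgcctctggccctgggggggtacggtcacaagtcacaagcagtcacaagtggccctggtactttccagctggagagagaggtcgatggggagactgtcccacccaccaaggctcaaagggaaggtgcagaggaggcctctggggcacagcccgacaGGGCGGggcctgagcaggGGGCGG
Cybb: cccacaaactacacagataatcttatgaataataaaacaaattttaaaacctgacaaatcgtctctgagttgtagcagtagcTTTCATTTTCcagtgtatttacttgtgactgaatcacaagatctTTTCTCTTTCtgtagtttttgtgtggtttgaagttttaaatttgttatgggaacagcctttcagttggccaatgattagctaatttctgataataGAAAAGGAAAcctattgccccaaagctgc
Ncf1: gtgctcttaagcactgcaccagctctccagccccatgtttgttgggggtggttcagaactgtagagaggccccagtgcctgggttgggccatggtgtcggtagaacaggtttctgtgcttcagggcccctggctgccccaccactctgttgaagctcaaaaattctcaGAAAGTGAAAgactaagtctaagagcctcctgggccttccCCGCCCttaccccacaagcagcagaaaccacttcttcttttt
The Cyba window held 2 copies of GGGCGG, a motif present in 32.7% of the 32851 windows of this length, and its GC content was 60%. The Cybb window, with a GC content of 34%, held 3 matches to the spaced GAAA pair, which occurs in 2.98% of all windows, and 1 CCAAT (33.8% of windows) from base -56 to -52. The Ncf1 window held 1 GGGCGG, read on the opposite strand, and 1 spaced GAAA pair. None of the matches overlapped another. GAGGAA (23.3% of windows), TTGCNNAA (9.56%) and TATAAA (12.4%) were searched on both strands and were not among the letters of these 3 windows. A match is a description of letters and not a binding site, and no link to the fold changes was tested.

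All 5 subunits had higher normalised read counts in Tespa1-/- LSKs, from 1.18-fold for Rac2 to 1.89-fold for Cyba. Read counts were normalised to CPM, on a library total adjusted by TMM factors, and a gene counted as called when its fold passed 1.5 and its adjusted p was below 0.05 (edgeR quasi-likelihood test, Benjamini-Hochberg adjustment over all genes tested). By that rule 2 of the 5, Cyba and Ncf4, were called higher and none lower, where 14.0% of all genes tested were called higher and 19.2% lower. Without the fold limit all 5 passed, against 31.5% of genes, and in all 5 the 3 Tespa1-/- libraries lay above the 3 Tespa1+/+ libraries, as they did for 34.5% of genes. The median log2 fold change of the 5 was 0.56, beside 0.00 over all genes.

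**Figure D1:**
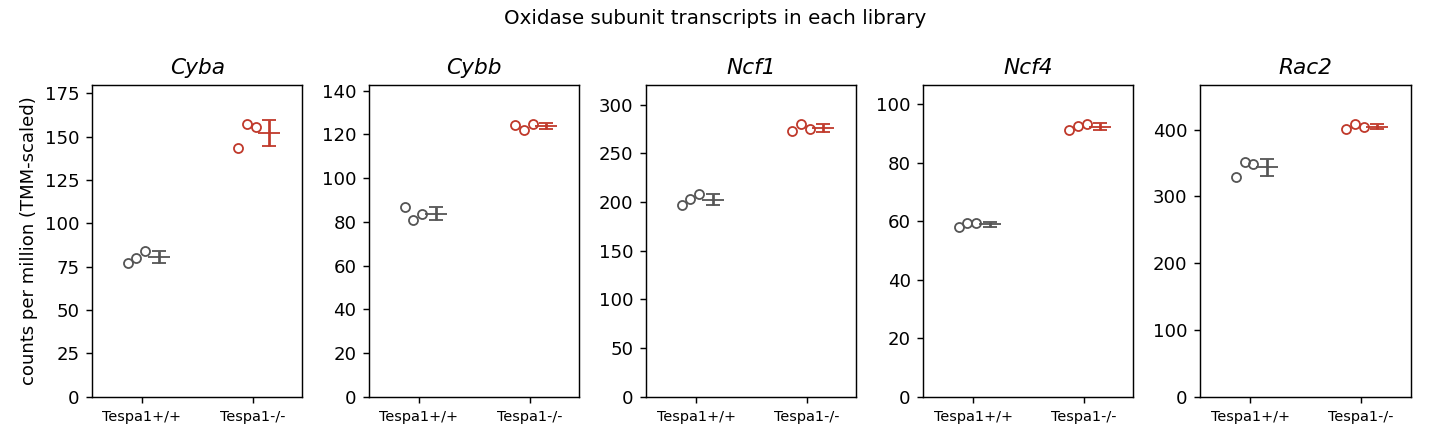
Normalised read counts (CPM, linear axis from 0) of each oxidase subunit in each library (open circles), with the group mean and SD (n = 3) drawn as a bar to the right of the circles. In every panel the Tespa1-/- libraries lie above the Tespa1+/+ libraries, by the largest fold for Cyba (mean 80.4 against 152.3) and the smallest for Rac2 (343.3 against 404.3).

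Among the membrane subunits, Cyba had 77.1, 80.3 and 83.9 CPM in the Tespa1+/+ libraries and 143.7, 157.3 and 155.8 CPM in the Tespa1-/- libraries. The groups did not overlap, and the difference was many times the spread within either group. The means were 80.4 ± 3.42 and 152.3 ± 7.45 CPM (SD, n = 3), and the log2 fold change was 0.92 ± 0.05 (SE, adjusted p = 7.3e-06). Cybb, which encodes the catalytic subunit, had 86.7, 80.9 and 83.6 CPM in Tespa1+/+ LSKs and 124.2, 122.2 and 124.8 CPM in Tespa1-/- LSKs. Its libraries did not overlap either, and the 3 Tespa1-/- values had an SD of 1.34 CPM around a mean of 123.7 CPM. The log2 fold change of Cybb was 0.56 ± 0.04 (SE, adjusted p = 1.8e-05), and its fold of 1.48 lay just under the limit of 1.5. Without Tespa1+/+ replicate 1 it was 0.59 on the log2 scale and past the limit.

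Among the cytosolic subunits, Ncf4 had 57.9, 59.4 and 59.5 CPM in Tespa1+/+ LSKs and 91.2, 92.7 and 93.3 CPM in Tespa1-/- LSKs. These were the most even replicates of the 5 genes in Tespa1+/+ LSKs, with an SD of 0.886 CPM around a mean of 58.9 CPM. The log2 fold change of Ncf4 was 0.65 ± 0.04 (SE, adjusted p = 7.3e-06). Against the fold limit itself (edgeR glmTreat) its adjusted p was 0.0851, and with total counts in place of TMM factors its log2 fold change was 0.55, under the limit. Ncf1, the organizer, had 196.9, 202.7 and 208.4 CPM in Tespa1+/+ LSKs and 272.9, 280.3 and 275.2 CPM in Tespa1-/- LSKs. Its groups did not overlap, and its log2 fold change was 0.45 ± 0.03 (SE, adjusted p = 2.2e-05), a fold of 1.36 that was not called. Reads of the stretch shared with Gtf2ird2 cannot be assigned without strand, and whether counting used the strand was not stated.

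Rac2, the GTPase of the complex in blood cells, had the highest counts and the smallest difference of the 5. It had 328.9, 352.0 and 348.9 CPM in Tespa1+/+ LSKs and 401.1, 408.4 and 403.3 CPM in Tespa1-/- LSKs. The libraries did not overlap, and the log2 fold change was 0.24 ± 0.03 (SE, adjusted p = 5.9e-04), which is a fold of 1.18 and was not called. The direction of Rac2 depended on the scale. On TPM, obtained by scaling the deposited FPKM of each library to a common sum, Rac2 had 266.3, 285.6 and 282.5 in Tespa1+/+ LSKs and 245.2, 251.2 and 247.7 in Tespa1-/- LSKs, so that all Tespa1-/- libraries lay below. Its log2 fold change was then -0.16 (limma-trend on log2(TPM + 1), adjusted p = 0.00584), on a scale that moved the median of all genes to -0.30. On the same TPM scale Cyba was at 0.52, Ncf4 at 0.24, Cybb at 0.16 and Ncf1 at 0.05 (adjusted p = 0.266), and no member was called.

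Fold changes over all genes also ran with gene length in these libraries. When the genes tested were cut into 10 deciles of exonic length, the decile of the shortest genes had a median of 0.54 on the log2 scale and that of the longest -0.56. In the former 43.1% of genes were called higher, and in the latter 0.914%. Cyba, with 1039 exonic bases, belongs to the second decile, where the median was 0.41 and 32.4% of genes were called higher. Ncf4 (2020 bases) belongs to the third decile (median 0.29, 23.1% called higher). Ncf1 (3663 bases) and Rac2 (3103 bases) belong to the fifth (median 0.07, 8.75% called higher). Cybb (5808 bases) belongs to the eighth, where the median was -0.23 and 3.79% were called higher. Each member therefore lay above the median of genes of its own length, Cybb by the most and Rac2 by the least.

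**Figure D2:**
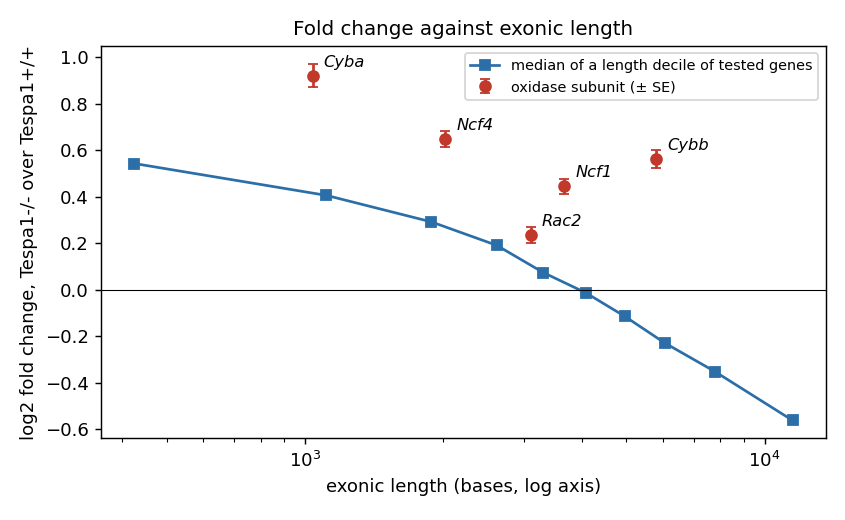
Log2 fold change of Tespa1-/- over Tespa1+/+ against exonic length in bases (log axis). Blue squares are medians over the deciles of the genes tested by length, and red circles are the oxidase subunits with their SE. All 5 circles lie above the blue line, which falls from 0.54 to -0.56.

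With a correction for gene length, which members passed 1.5-fold depended on how the correction was made. It was made in 6 forms, of which only 1 had been planned and the others were added after values of the members had been seen. The planned form was itself run only after the members' values under the fit to well-expressed genes had been seen. They used 2 measures of length (the length implied by the deposited counts and FPKM, and the exonic length of GENCODE M21) and 3 ways to fit and centre the trend. The planned form called 4 members higher (Cyba, Cybb, Ncf1 and Ncf4), where it called 12.8% of all genes and moved the median of all genes to 0.11. The same form on exonic length called Cyba and Cybb (11.6% of genes, median 0.11). Centred again on the median gene, the correction called Cyba and Cybb with implied length (8.24% of genes) and Cybb alone with exonic length (7.54%). Fitted only to genes with a mean log2 CPM over 3, it called none with implied length (6.95%) and Cybb alone with exonic length (6.46%). Over the 6 forms the log2 fold change of Cybb ranged from 0.57 to 0.85 and Cybb was called in 5 of them. Cyba ranged from 0.45 to 0.74 and was called in 3. Ncf1 ranged from 0.36 to 0.61 and Ncf4 from 0.32 to 0.60, and each was called in 1. These 4 genes had an adjusted p under 0.05 in all 6 forms. Rac2 ranged from 0.02 to 0.24 and was called in none, and its adjusted p was 0.698 and 0.0759 in the forms fitted to well-expressed genes.

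**Figure D3:**
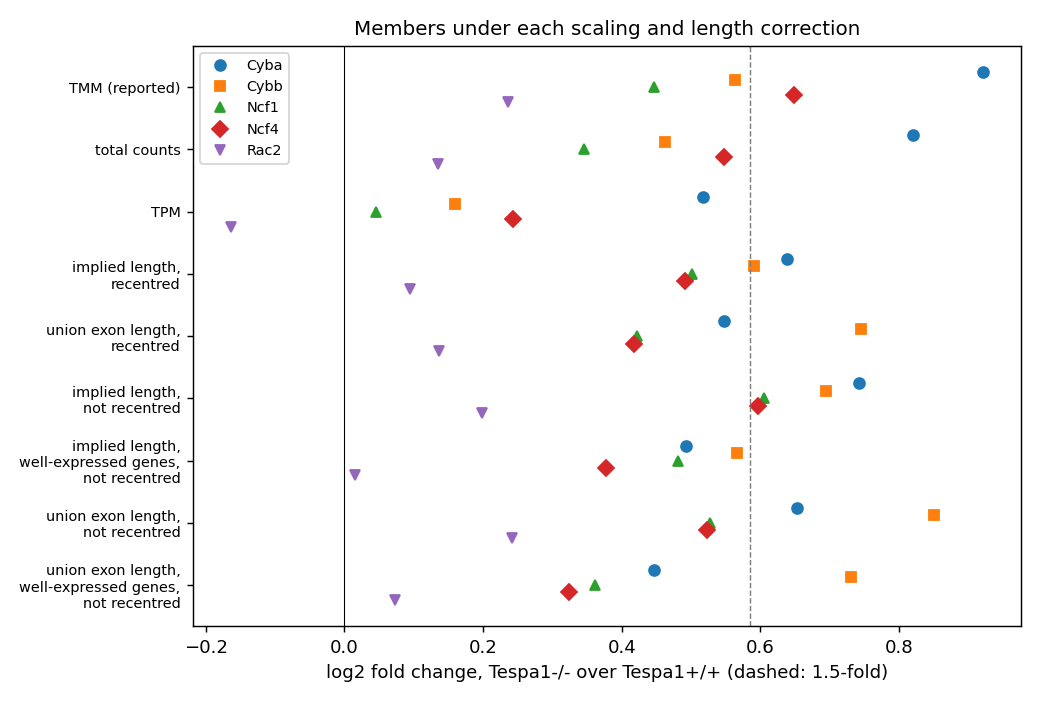
Log2 fold change of each oxidase subunit (marker shapes) under the reported TMM scaling, total counts, TPM and the 6 length corrections. The dashed line is 1.5-fold and the solid line is no change. Rac2 on TPM (-0.16) is the only value left of the solid line, and from 0 to 4 members lie right of the dashed line.

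Levels of different genes can be compared only per length, for which the deposited FPKM was used. In Tespa1+/+ LSKs the order was Rac2 (97.7 ± 3.45 FPKM), Cyba (64.2 ± 2.67), Ncf1 (31.1 ± 0.854), Ncf4 (20.3 ± 0.280) and Cybb (13.8 ± 0.491; SD, n = 3), and no neighbours in this order overlapped. In Tespa1-/- LSKs Cyba (113.3 ± 5.69 FPKM) and Rac2 (107.3 ± 1.15) had overlapping libraries at the top. Ncf1 (39.5 ± 0.601), Ncf4 (29.7 ± 0.379) and Cybb (19.0 ± 0.188) followed without overlap. The catalytic subunit was thus the lowest of the 5 transcripts per length in both groups, although its mean FPKM over the 6 libraries exceeded that of 80.1% of the genes tested. The length implied by FPKM is longer than the exonic length of the annotation for all 5 genes. Per exonic base of the annotation the order in Tespa1+/+ LSKs was the same, and in Tespa1-/- LSKs Cyba (141.4 ± 7.10, in FPKM recomputed on that length) stood above Rac2 (125.7 ± 1.34).

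**Figure D4:**
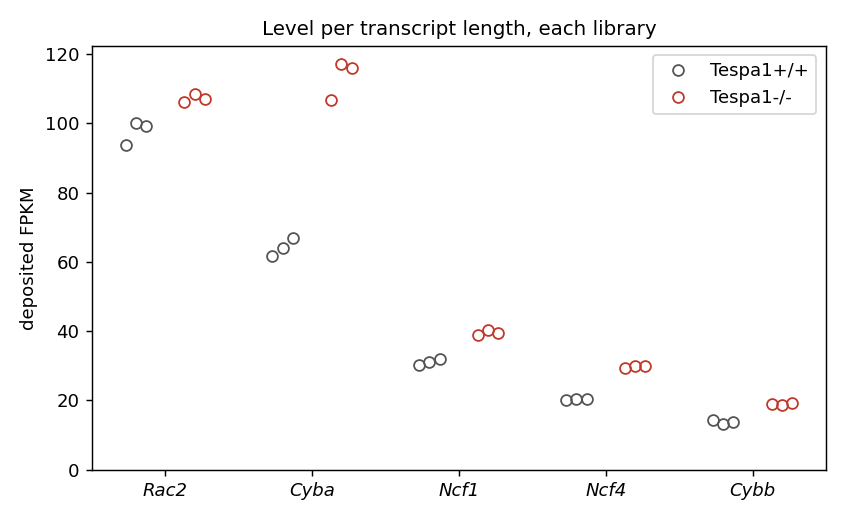
Deposited FPKM of each oxidase subunit in each library, in the order of the Tespa1+/+ means (linear axis from 0; open circles, 3 libraries a group). Rac2 is highest in Tespa1+/+ LSKs at 97.7, and Cyba reaches the range of Rac2 in Tespa1-/- LSKs at 113.3.

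The proportions of the subunits in the deposited FPKM differed between the groups. Cyba made up 28.3% of the summed FPKM of the 5 genes in Tespa1+/+ LSKs and 36.7% in Tespa1-/- LSKs, while Rac2 made up 43.0% and 34.8%. The log2 ratio of Cyba to Cybb, the partners in the membrane, was 2.22 ± 0.097 in Tespa1+/+ and 2.58 ± 0.079 in Tespa1-/- LSKs (SD, n = 3), a difference of 0.36 with no overlap (exact permutation test, two-sided, p = 0.1, the smallest that 3 against 3 can give). The log2 ratio of Ncf1 to Ncf4 was 0.62 ± 0.023 and 0.41 ± 0.019, a difference of -0.20 (exact permutation test, p = 0.1). In both ratios the shorter gene gained on the longer one, and neither shift held under the length corrections described above. Over the 6 forms the log2 fold change of Cyba minus that of Cybb ranged from -0.29 to 0.05, negative in 4 of them, and that of Ncf1 minus that of Ncf4 from 0.004 to 0.10. Rac2 made up 69.9% ± 1.35 of the summed FPKM of Rac1, Rac2 and Rac3 in Tespa1+/+ LSKs and 68.3% ± 0.168 in Tespa1-/- LSKs. The libraries overlapped, and the difference of -1.52 percentage points did not pass the test (exact permutation test, two-sided, p = 0.2). It was -0.921 points without Tespa1+/+ replicate 2 and -2.25 points without Tespa1+/+ replicate 1. With counts per exonic length the share was 65.66% in Tespa1+/+ and 64.05% in Tespa1-/- LSKs. The size of the share is uncertain, since 55% of the 50-base words of Rac1 transcripts also occur in Daglb. The summed level of the 5 members was 1.36-fold higher in Tespa1-/- LSKs by CPM and 1.10-fold higher by TPM.

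The profiles of the members over the 6 libraries differed mainly in the size of the step between the groups. Centred log2 CPM profiles of Cybb and Ncf4 were the closest pair, with a root mean square difference of 0.059, and those of Cyba and Rac2 the farthest, with 0.34. Among 10820 genes with a mean count of at least 100, the profile nearest to Cyba was that of Psmb3, a proteasome subunit (0.020). Selenok was nearest to Ncf4 (0.0074) and Creg1 to Rac2 (0.014). The nearest to Cybb was the ribosomal pseudogene Rpsa-ps7 (0.012) and the nearest to Ncf1 was Gm4294 (0.0086), whose counts may share reads with near-identical genes. Profiles within 0.1 were common, from 2.69% of these genes for Cyba to 15.8% for Rac2.

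Of the 20 tested genes next to the members on their chromosomes, 2 on each side, 1 was called higher and 4 lower. Over all genes tested 14.0% were called higher and 19.2% lower. The neighbour called higher was Mvd, a mevalonate pathway enzyme 670 bases from Cyba, with a log2 fold change of 0.79 ± 0.09 (SE, adjusted p = 2.3e-04). The other neighbours of Cyba were Zfpm1, called lower at -0.70, Zc3h18 at -0.23 and Rnf166 at 0.03. Beside Ncf4, Csf2rb and Csf2rb2, which encode beta chains of cytokine receptors, were at 0.54 and 0.30, and neither was called. Il2rb beside Rac2 (-1.07), Xk beside Cybb (-0.60) and Gm43481 beside Ncf1 (-1.91) were called lower. With the recentred correction on exonic length Mvd (0.54) and Xk (-0.49) were not called, and Csf2rb (0.83) was called higher. Zfpm1, Il2rb and Gm43481 stayed lower in that form, and Gm6829 and Gm36738 were also called lower.

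Other genes of the oxidase family were also examined. Cybc1, a chaperone needed for the Cyba and Cybb proteins, had 53.0, 54.8 and 54.4 CPM in Tespa1+/+ LSKs and 63.6, 70.3 and 73.9 CPM in Tespa1-/- LSKs. Its groups did not overlap, and its log2 fold change was 0.36 ± 0.06 (SE, adjusted p = 0.00168), a fold under the limit. Noxo1, the organizer of non-phagocyte oxidases, had about 2 CPM and was at -0.32 ± 0.18 (adjusted p = 0.16). Nox3, Duox1, Duox2, Duoxa1 and Duoxa2 had no count in any library, which allows up to 3 counts in each, and Nox1, Nox4 and Noxa1 had 0 to 7. Rac1, the ubiquitous paralogue of Rac2, was at 0.33 ± 0.03 (adjusted p = 1.0e-04), with 246.6 to 264.4 CPM in Tespa1+/+ and 319.1 to 323.2 CPM in Tespa1-/- LSKs. Of the 50-base words of its transcripts 55% also occur in Daglb, so its counts are uncertain.

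Of the 17 kinases, lipid enzymes and the proton channel that serve oxidase assembly, 16 were tested, and 2 were called higher and 4 lower (median 0.04). Over all genes tested the shares were 14.0% higher and 19.2% lower. Hvcn1, the voltage-gated proton channel that carries charge back during the burst, rose from 70.9 ± 2.73 to 122.9 ± 4.58 CPM (SD, n = 3), a log2 fold change of 0.79 ± 0.05 (SE, adjusted p = 8.9e-06). Pik3r5, a regulatory subunit of phosphoinositide 3-kinase gamma, was at 0.62, while Pik3cg, its catalytic partner, was at -1.04 and Prkca at -1.50. Mapk14 was called lower at -0.83, but its libraries overlapped, and leaving out Tespa1+/+ replicate 2 or 3 or Tespa1-/- replicate 2 or 3 ended its call, at the least with -0.49 (adjusted p = 0.119) without Tespa1+/+ replicate 3. Pak2 had the highest level per length in the list and was at -0.10.

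Of the 16 phagocyte receptors 15 were tested, and 6 were called higher and 2 lower (median 0.35). Over all genes tested the shares were 14.0% higher and 19.2% lower. Ltb4r1, the leukotriene B4 receptor, was at 1.12 ± 0.06 (SE, adjusted p = 4.6e-06), and the Fc receptors Fcgr3 and Fcgr2b were at 0.73 and 0.70. Clec7a (Dectin-1, a receptor for fungal glucans) was at -0.69 ± 0.09 (adjusted p = 4.5e-04). Called genes are named here only where their mean count was at least 50, and unnamed called genes of this list changed more in both directions. Fcer1g, the shared signalling chain of Fc receptors, had the highest mean FPKM of the list over the 6 libraries, with 23.4 in Tespa1+/+ and 28.0 in Tespa1-/- LSKs, and was at 0.35. In Tespa1-/- LSKs alone Fcgr3 (30.9 FPKM) and Ltb4r1 (28.9 FPKM) stood above it.

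Of the 14 transcription factors linked to oxidase genes, all tested, 2 were called higher and 6 lower (median -0.34). The shares of all genes tested were 14.0% higher and 19.2% lower. Spi1 (PU.1), which is known to bind oxidase gene promoters, had 162.2, 176.9 and 166.0 CPM in Tespa1+/+ LSKs and 264.8, 274.5 and 264.0 CPM in Tespa1-/- LSKs. Its log2 fold change was 0.67 ± 0.04 (SE, adjusted p = 1.0e-05). A link between Spi1 and the values of the members was not tested. Cebpe, which drives late granulocyte maturation, rose from 25.6 ± 1.28 to 71.1 ± 1.40 CPM (SD, n = 3), a log2 fold change of 1.47 ± 0.05. Only 1 of the 14 factors was called higher with total counts, with glmTreat or with the recentred correction on exonic length. The call of Spi1, the smaller rise of the 2, therefore depended on the setting. Meis1 was at -1.29 ± 0.06 (SE, adjusted p = 2.8e-06). Irf8 was called lower at -0.86, but Tespa1-/- replicate 3 (191.5 CPM) lay above Tespa1+/+ replicate 3 (168.7 CPM), and leaving out replicate 1 or 2 of either group ended its call (adjusted p = 0.103 to 0.114).

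Of the 13 enzymes acting on superoxide and hydrogen peroxide 12 were tested, and 4 were called higher and none lower (median 0.52). The shares of all genes tested were 14.0% higher and 19.2% lower. Mpo, the myeloperoxidase of primary granules, had the highest level and was at 0.48 ± 0.02 (SE, adjusted p = 5.0e-06), a fold under the limit. Prdx5 was at 0.80 and Gpx4 at 0.65. Epx, given below with the eosinophil markers, was also called higher. Its log2 fold change lay between 3.03 and 3.32 when any 1 library was left out. Gpx1 was called higher at 1.98, but 1 library decided its size: Tespa1-/- replicate 3 had 1503 CPM against 265.3 and 277.9 in the others and 168.6 to 178.5 in Tespa1+/+ LSKs, and without that replicate it was at 0.66. Leaving out any 1 Tespa1+/+ library ended its call (adjusted p = 0.0846 to 0.0876). Cat (catalase) was at -0.39 ± 0.04 and was the only tested gene of the list with an adjusted p under 0.05 that was lower.

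**Figure D5:**
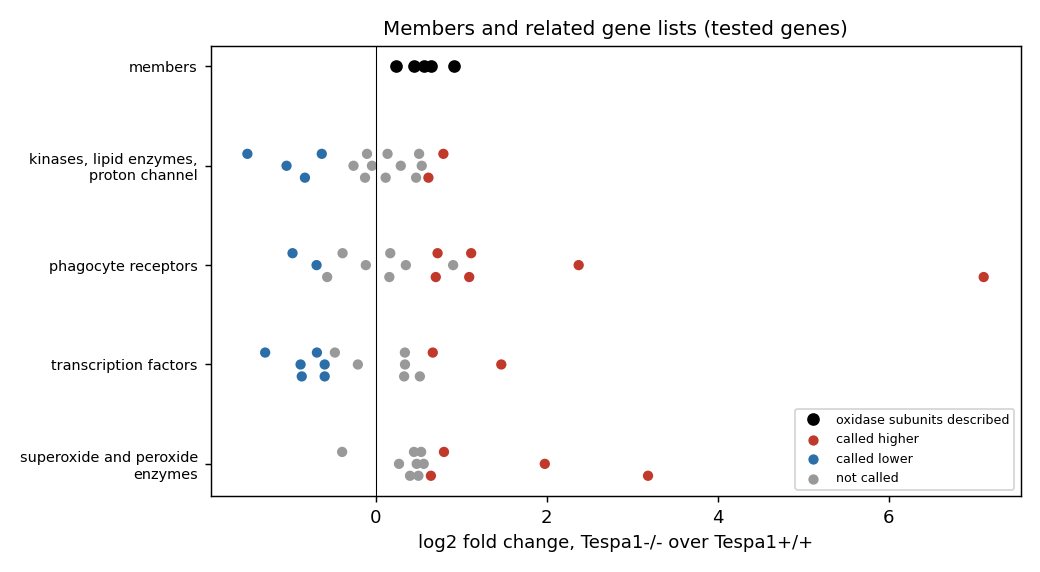
Log2 fold change (Tespa1-/- over Tespa1+/+) of the 5 oxidase subunits (black) and of the tested genes of each related list, with genes called higher in red, called lower in blue and not called in grey. The members lie between 0.24 and 0.92, while 3 of the 4 related lists have genes called in both directions.

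Libraries differed in markers of maturing granulocytes, a cell type in which the oxidase is abundant. Beside the marker counts that follow, 14.0% of all genes tested were called higher and 19.2% lower. The summed CPM of 12 late neutrophil markers was 26.6 to 30.2 in Tespa1+/+ and 498.2 to 528.2 in Tespa1-/- LSKs, and 10 of the 11 tested were called higher, among them Lcn2 (15.8 against 128.6 CPM) and S100a8 (2.74 against 88.4 CPM). Ly6g had no count in any Tespa1+/+ library and 0.428 CPM on average in Tespa1-/- libraries. The 5 promyelocyte markers summed to 10910 to 11640 CPM in Tespa1+/+ and 17960 to 18770 CPM in Tespa1-/- LSKs, with 4 called higher, and the 9 monocyte and macrophage markers to 1134 to 1166 and 1239 to 1292 CPM, with 2 called higher and 2 lower. The 8 LSK markers summed to 1177 to 1203 CPM in Tespa1+/+ and 638.3 to 656.2 CPM in Tespa1-/- LSKs, and 7 were called lower, Kit among them at -0.97 on the log2 scale. Ly6a (Sca-1) was the one not called, at -0.32 (adjusted p = 0.109) with overlapping libraries. The part of these differences in the oxidase values was not tested, and in bulk RNA more cells of a type and more RNA per cell cannot be told apart. Total counts were 14344753 to 30576981 in Tespa1+/+ and 12856630 to 17684702 in Tespa1-/- libraries. Tespa1 itself had 533 to 1033 counts in Tespa1+/+ and 176 to 261 in Tespa1-/- libraries, a log2 fold change of -1.23 ± 0.07 (SE, adjusted p = 7.0e-06). Which exons the allele lacks was not given in the sources used here.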

How the data were processed

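RNA was sequenced from LSKs of irradiated Tespa1+/+ and Tespa1-/- mice (3 libraries each). Groups and replicate numbers came from the sample titles. The authors deposited raw counts per gene and FPKM values for 55487 genes. The submitters' processing notes name CASAVA 1.8, HISAT2, StringTie, edgeR and the build GRCm38. Libraries were poly-A selected and made with a stranded kit, and whether counting used the strand was not given in the sources used here. Of the genes, 55227 were found in GENCODE M21.

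The test was the quasi-likelihood F-test of edgeR 4.0.16 in R 4.3.3, after filterByExpr and with TMM factors, on all 6 samples without covariates. P-values were adjusted over the 15332 genes tested, and the SE was taken from the log2 fold change and its F statistic. The cutoff of the study, a fold over 1.5 and p below 0.05 before adjustment, was an alternative here. Ratios were tested with an exact permutation test in SciPy. TPM was computed from the deposited FPKM. The alternatives used RLE factors, total counts, other filters, DESeq2 1.42.0, glmTreat, limma 3.58.1 on FPKM or TPM, length corrections, a replicate block, and leaving out each library.

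The members and gene lists were chosen with earlier results of these data known. The length correction was run in 3 ways of fitting and centring in turn, each after the members' values under the one before had been seen. The first was a local straight-line loess fit to genes with a mean log2 CPM over 3, the second a loess fit (span 0.5) to all tested genes, which on implied length is the form that had been planned, and the third the same fit recentred on the median gene. All 3 are reported, each with both lengths. TPM scaling, the adjusted p without a fold limit and ratios of counts per exonic length were also added after seeing the data.

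Named genes were the members, other genes of the oxidase family, Rac1, marker genes, the 3 largest rises and falls among called genes with a mean count of at least 50 in each other list with its highest gene per length, the 2 nearest tested genes on either side of a member and the 3 genes with the most similar profile. On simulated data without a length trend edgeR recovered 98% of 2-fold and 100% of 4-fold changes among 15082 genes and called 4 unchanged ones. When a length trend was simulated it called 1909 unchanged genes, or 3 after the recentred correction. The simulated trend followed exonic length, and the correction was given that same length. The simulation therefore cannot show how a correction performs where the length measure is uncertain, and the other forms were not simulated. Total counts were 12856630 to 30576981. Limits for a count of 0 (3 counts) cover counting error only, since without molecular identifiers a read need not be a separate molecule. Replicates differed by more than sampling noise (chi-square per degree of freedom of 7.33 to 9.78), so that no library was a copy. Promoters of Ncf4 and Rac2 and protein sequences were not used here. Some list results and named genes are not reported here.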

Additional observations from a re-analysis of the deposited data

How the results depend on the processing

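The direction of the members held under every alternative run except for Rac2 on TPM, where the log2 fold change was -0.16 (adjusted p = 0.00584). Of the 5 members, 2 were called higher in the reported fit, as with DESeq2, RLE factors, either filter, the unadjusted p with the fold limit and the replicate block. Total counts, glmTreat and limma-trend on log2(FPKM + 1) or log2(FPKM + 0.1) each called 1, and limma-trend on log2(TPM + 1) called 0. The adjusted p without a fold limit called 5, where it called 31.5% of all genes higher. Shares of all genes are given here only for the reported fit, this last rule and the length corrections. Under the other settings a move of the count cannot be told apart from a change over all genes. Length corrections called 4 (implied length, not recentred), 2 (exonic length, not recentred), 2 (implied, recentred), 1 (exonic, recentred), 0 (implied, well-expressed genes) and 1 (exonic, well-expressed genes). This count moved with the length measure, the genes fitted and the centring. All forms but the planned one were chosen after the values had been seen, and the planned one was also run after that. No form is preferred. Leaving out 1 library gave 2 to 3. The summed level of the members moved from 0.14 (log2, TPM) to 0.45 with CPM.

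Replicate numbers shared no deviation between groups (correlations -0.0728, -0.0783 and 0.0136), so libraries were not treated as pairs. With the replicate block 2 members were called, and the exact sign-flip test of paired differences gave p = 0.25 for each of the 3 ratios, the smallest it can give with 3 pairs.

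For the related lists, counts are of genes called higher or lower. Shares of all genes called are not given here for most of these settings, so a moved count has no background beside it. Of the assembly genes (2 higher, 4 lower) total counts and limma-trend on FPKM called 1 higher, glmTreat 1 and 2, TPM 0 higher, and length corrections 4 to 5 higher and 1 to 3 lower. Of the receptors (6 higher, 2 lower) glmTreat called 0 lower, limma-trend on log2(FPKM + 1) 3 higher and 1 lower, on log2(FPKM + 0.1) 1 lower, and TPM 1 higher and 4 lower. Of the transcription factors (2 higher, 6 lower) total counts, limma-trend on FPKM and TPM called 1 higher, glmTreat 1 and 2, and length corrections 1 to 2 higher and 1 to 3 lower. Of the peroxide enzymes (4 higher, 0 lower) glmTreat called 1 higher, limma-trend on FPKM 2 higher, TPM 1 higher and 1 lower, and length corrections 2 to 6 higher and 0 to 1 lower. Leaving out 1 library gave 2 to 4 lower for the assembly genes (fewest without Tespa1+/+ replicate 2) and 3 to 4 for the transcription factors (fewest without Tespa1+/+ replicate 1). Where a count moved, the cause was not tested.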

Other observations

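Markers of other lineages among the fixed lists moved in both directions. Beside them, 14.0% of all genes tested were called higher and 19.2% lower. Of 4 eosinophil markers 2 were tested and both were called higher, Prg2 from 1.85 to 24.5 CPM and Epx from 0.606 to 5.76 CPM, while the receptors Ccr3 and Il5ra stayed too low to be tested. Of 5 erythroid markers 4 were tested, and Hba-a1 (4.34 to 19.0 CPM) and Hbb-bs were called higher while Klf1 (6.27 to 3.18 CPM) and Car1 (15.8 to 8.06 CPM) were called lower. Of 5 B cell markers 4 were tested and 3 were called lower, with Pax5 from 8.98 to 1.71 CPM. The remaining 1 was higher in Tespa1-/- LSKs, with an adjusted p under 0.05 (edgeR) but a fold under the limit. Of 5 T cell markers only Lck was tested, which was called lower (12.8 to 6.96 CPM). All of these values are group means of 3 libraries, Tespa1+/+ first.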
